A study of Mus musculus with 6 samples.

Results

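Smooth muscle contractile genes were followed in colon tissue with tumors from mice. The group was a list of 41 gene symbols for the contractile machinery of smooth muscle cells and its control, and its members were all probes on the array that carry one of these symbols. All 41 symbols were on the array, with 106 probes among the 56605 gene probes, and 38 of the 41 genes were tested among 19090 genes in all. The mice were male C57BL/6 mice, 6 to 8 weeks old at purchase. All carried colitis-associated tumors induced with AOM, a carcinogen given once at 10 μg/g, and with DSS, which inflames the colon, at 2% of the drinking water. One group of 3 mice received RG@M-γ-CD by mouth, a host-guest complex of the multikinase inhibitor regorafenib (RG) and mannose-modified γ-cyclodextrin, at a dose of 30 μg/g that held 10 μg/g RG. The other group of 3 mice received PBS. Treatment took 21 days and was followed by 14 days of observation, and each mouse gave 1 one-color array. How much of the muscle wall each piece of tissue held is not given in the sources used here.

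The muscle wall of the colon lies under the mucosa and moves its content. A smooth muscle cell contracts when calcium activates myosin light chain kinase, which phosphorylates the light chain of myosin and lets it pull on actin filaments. These filaments are tied to dense bodies and to plaques at the cell membrane by desmin, filamin and their partners. Cyclic GMP, raised by nitric oxide from nerves, relaxes the cell. Serum response factor and its cofactor myocardin drive many of the contractile genes through a DNA motif called the CArG box.

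Values are log2 intensities from which the 75th percentile of the same array was subtracted, so a difference of 1 is a 2-fold difference. They compare arrays for the same probe and say nothing about the level of one gene against another. In a piece of tissue, fewer smooth muscle cells and less RNA per smooth muscle cell cannot be told apart. On each array 49.6% to 55.2% of the gene probes stood well above background, 0 gene spots were saturated, and all 6 arrays came from 1 slide and 1 scan. The 3 RG@M-γ-CD arrays and PBS replicate 1 lay in row 1 of the slide, and PBS replicates 2 and 3 in row 2. A clustering shown by the study puts RG@M-γ-CD replicate 1 beside PBS replicates 2 and 3, and PBS replicate 1 beside RG@M-γ-CD replicates 2 and 3, with no condition named. Over the 19090 genes tested, which are not independent, PBS replicate 1 correlated with PBS replicates 2 and 3 at r = 0.981 and 0.983 and with RG@M-γ-CD replicates 2 and 3 at 0.972 and 0.977. RG@M-γ-CD replicate 1 correlated with PBS replicates 2 and 3 at 0.985 and 0.987 and with RG@M-γ-CD replicates 2 and 3 at 0.941 and 0.973. RG@M-γ-CD replicate 3 correlated with PBS replicates 2 and 3 at 0.985 and 0.984 and with RG@M-γ-CD replicate 2 at 0.977. RG@M-γ-CD replicate 2 correlated with PBS replicates 2 and 3 at 0.964 and 0.962. Over all genes, closeness to these PBS arrays was thus not particular to RG@M-γ-CD replicate 1. The groups used here are those of the sample labels, and results are therefore also given array by array and without replicate 1.

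A CArG box was found in the promoter of 3 members, and their sequences are shown because this motif is the textbook control element of the group. Promoter windows of 300 bases, 250 before and 50 after a transcription start, were taken from RefSeq on GRCm38.p6 and matched 37 of the 41 members. Myocd, Actg2, Myh11 and Tagln had no entry. The motif was searched as its letters, CC, then 6 bases that are each A or T, then GG, which reads as the same motif on the other strand. It was found in 3 of the 37 members, 8.11%, and in 488 of all 27025 genes with a window, 1.81%. These are shares of letters in a short window and name no binding site. The 250 bases before the start are printed 5′ to 3′ on the strand of the gene, with the CArG box in capitals. That of Myl9 lies on chr2:156775214-156775463 (plus strand), that of Dmd on chrX:82948620-82948869 (plus strand), and that of Ldb3, for the downstream one of its 2 annotated starts, on chr14:34588608-34588857 (minus strand).
Myl9: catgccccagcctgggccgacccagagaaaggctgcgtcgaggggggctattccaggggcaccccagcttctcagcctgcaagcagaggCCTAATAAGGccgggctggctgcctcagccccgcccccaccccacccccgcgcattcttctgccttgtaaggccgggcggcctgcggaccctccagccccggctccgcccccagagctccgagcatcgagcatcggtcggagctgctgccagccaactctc
Dmd: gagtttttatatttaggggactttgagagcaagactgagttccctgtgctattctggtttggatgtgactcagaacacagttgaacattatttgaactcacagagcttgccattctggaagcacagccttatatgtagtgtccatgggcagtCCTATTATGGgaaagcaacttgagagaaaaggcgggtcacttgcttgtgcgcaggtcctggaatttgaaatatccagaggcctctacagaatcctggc
Ldb3: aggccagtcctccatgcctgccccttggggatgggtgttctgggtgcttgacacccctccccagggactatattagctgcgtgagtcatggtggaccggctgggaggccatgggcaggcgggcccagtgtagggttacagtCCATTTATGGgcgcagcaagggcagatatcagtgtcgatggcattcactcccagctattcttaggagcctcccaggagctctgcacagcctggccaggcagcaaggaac
The box began 161 bases before the start of Myl9, 98 before that of Dmd and 109 before that of Ldb3. Their values on the arrays are given with their roles.

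The comparison of the groups asked whether smooth muscle RNA differed after RG@M-γ-CD. Of the 38 genes tested, 35 had a higher mean in RG@M-γ-CD and 3 a lower one (Ldb3, Pdlim7 and Tacr2), against 47.2% higher over all genes tested. The median difference was 0.86 on the log2 scale, against −0.01 over all genes. None of these differences passed the test, however. In limma, with Benjamini-Hochberg adjustment across the 19090 genes, 0 members and 0% of all genes had an adjusted p below 0.05, and the smallest adjusted p over all genes was 0.818. At an unadjusted p below 0.05, 1 member was higher, Dmd, or 2.63% of those tested against 0.864% of all genes. The groups did not overlap in 1 member, again Dmd, against 2.38% of all genes that were higher without overlap. For a single gene, the smallest two-sided p an exact permutation test allows with 3 arrays in each group is 0.1.

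The spread within the RG@M-γ-CD group was much wider than within PBS. RG@M-γ-CD replicate 1 lay below all 3 PBS arrays in 30 of the 38 members and above all of them in 2. RG@M-γ-CD replicates 2 and 3 each lay above all 3 PBS arrays in 34 members. The share over all genes was not taken for these counts, so they are description only. Relative to the PBS mean of each gene, the median over the members was −0.67 on RG@M-γ-CD replicate 1, 1.60 on replicate 2 and 1.76 on replicate 3. The order was noticed in the values and then counted. Replicates 2 and 3 of RG@M-γ-CD were the highest arrays in 31 of 38 members, where 11.5% of all genes had this order, and RG@M-γ-CD replicate 1 was the lowest in 30, against 18.8% of all genes. Both held for 27 members, a count for which the share over all genes was not taken. The gap between the highest and the lowest array had a median of 2.56 over the members and of 0.72 over all genes tested. Within PBS the median gap over the members was 0.39.

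**Figure D1:**
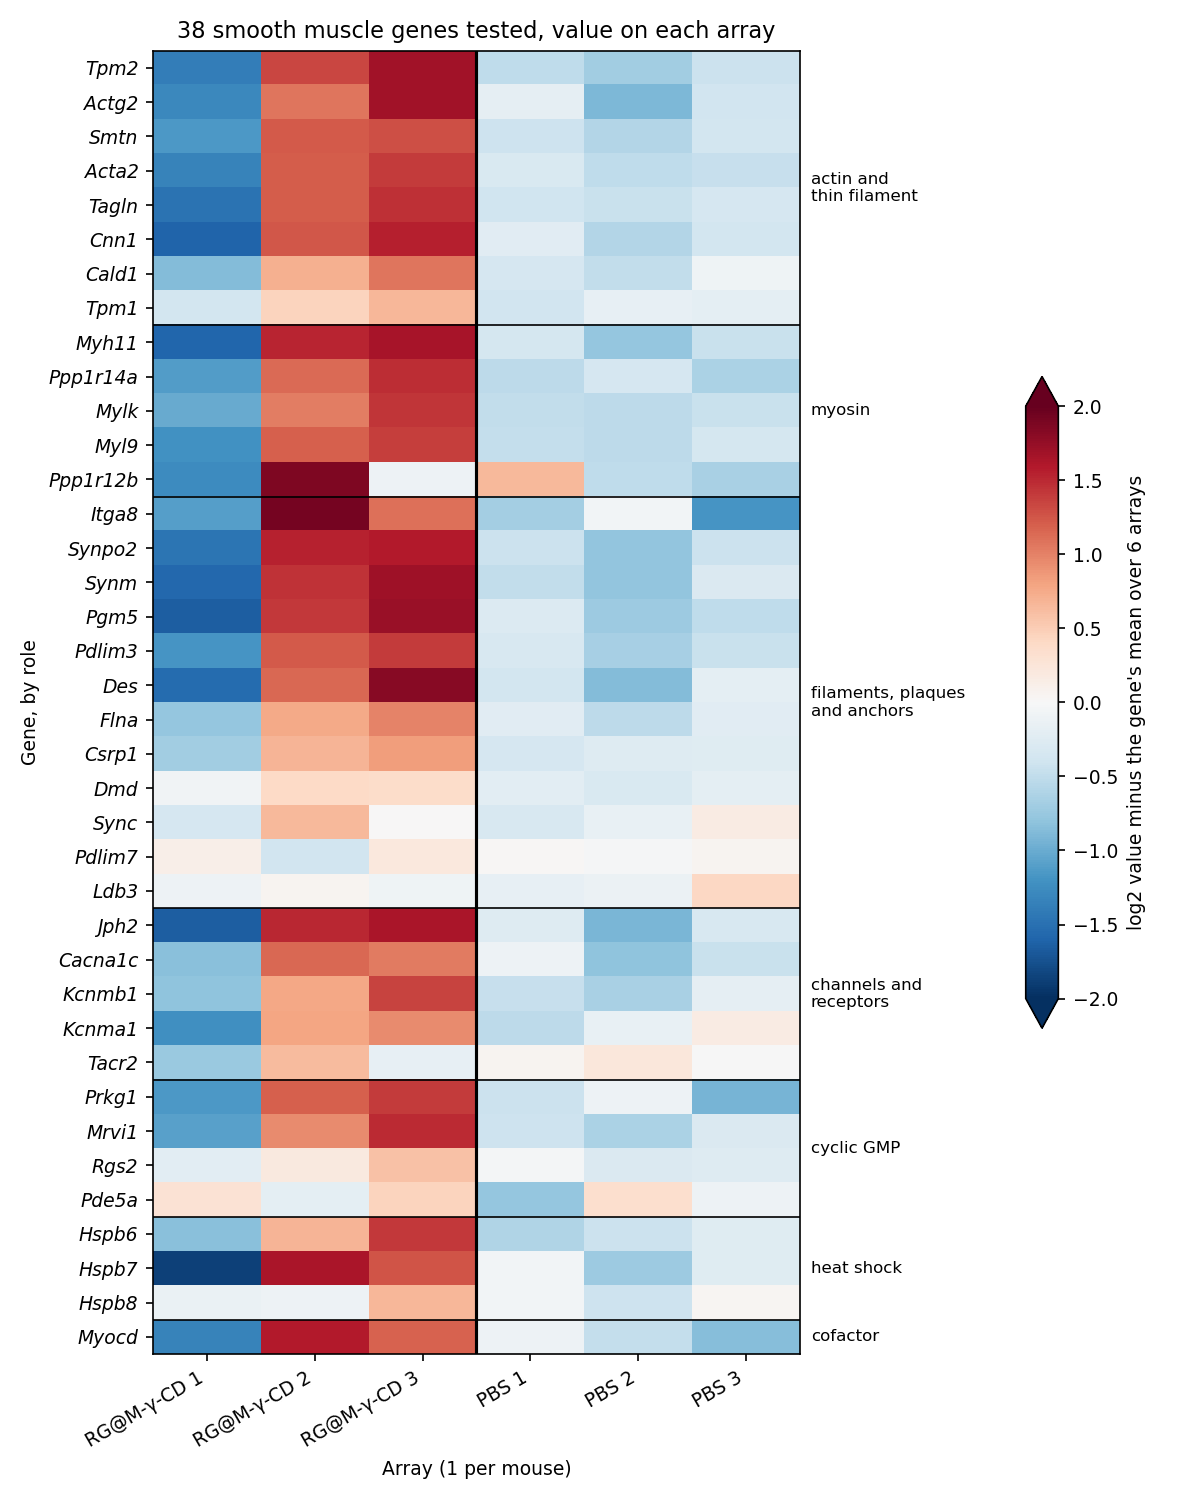
Values of the 38 genes tested (rows, grouped by role) on the 6 arrays (columns, 1 per mouse), as the log2 value minus the mean of the gene over the 6 arrays, with blue below and red above that mean. RG@M-γ-CD replicate 1 is the lowest array in 30 genes and replicates 2 and 3 are the highest in 31, while the 3 PBS arrays lie between them in most rows.

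Actin and the proteins of the thin filament were measured with 9 genes, of which 8 were tested. All 8 had a higher mean in RG@M-γ-CD, with a median difference of 0.82, and 0 were below an unadjusted p of 0.05. Acta2 encodes smooth muscle alpha actin (probe A_52_P420504, NM_007392, mm9 chr19:34316060-34316119). It stood at 4.60, 7.16 and 7.33 on RG@M-γ-CD replicates 1, 2 and 3 and at 5.63, 5.43 and 5.48 on PBS replicates 1, 2 and 3. The PBS arrays were within 0.20 of each other, and the RG@M-γ-CD arrays lay on both sides of them. The means of 6.36 ± 1.53 (SD, n = 3) and 5.51 ± 0.10 (SD, n = 3) gave a difference of 0.85 (standard error 0.71), which was within the spread (unadjusted p = 0.273 from limma). Actg2 encodes the gamma actin of visceral smooth muscle (A_51_P241269, mm9 chr6:83472853-83473179, across a splice junction). Its values were 2.25, 4.61 and 5.22 on the RG@M-γ-CD arrays and 3.35, 2.65 and 3.15 on the PBS arrays, with the same order and overlap (unadjusted p = 0.234 from limma). The actin genes are close paralogs, and cross-hybridization between their probes was not tested.

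Tagln encodes transgelin, an actin-binding protein abundant in smooth muscle. Its probe read 5.17, 7.86 and 8.11 with RG@M-γ-CD and 6.25, 6.21 and 6.31 with PBS, where the arrays lay within 0.10 of each other. Cnn1 encodes calponin, which binds actin and lowers the activity of myosin. It was at 4.86, 7.70 and 8.02 with RG@M-γ-CD and at 6.24, 5.88 and 6.10 with PBS. In both genes the first RG@M-γ-CD array was more than 1 below the lowest PBS array and the other two were more than 1 above the highest. Tpm1, a tropomyosin that lies along the actin filament, had the smallest p of this role. It was at 3.84, 4.67 and 4.88 with RG@M-γ-CD and at 3.83, 4.05 and 4.02 with PBS, a difference of 0.50 (standard error 0.29, unadjusted p = 0.133 from limma). Here RG@M-γ-CD replicate 1 lay within the PBS arrays and not below them. Smtn (smoothelin), Cald1 (caldesmon) and Tpm2, a second tropomyosin, had differences of 0.91, 0.61 and 1.09. Lmod1, which nucleates actin filaments in smooth muscle, was not tested over all 6 arrays, since it was well above background on 2 arrays of each group. It read −5.20, −2.72 and −2.05 with RG@M-γ-CD and −3.99, −4.23 and −3.84 with PBS, and the arrays on which it was not well above background were RG@M-γ-CD replicate 1 and PBS replicate 2. Without RG@M-γ-CD replicate 1 it passed the filter only through RG@M-γ-CD replicates 2 and 3, where it was high. Its difference of 1.63 in that fit (standard error 0.26) is therefore no test of the gene. Without PBS replicate 2 it differed by 0.59 (standard error 0.95).

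The myosin motor and the enzymes that set its phosphorylation had 5 genes, all tested and all with a higher mean in RG@M-γ-CD (median difference 0.97). Myh11 encodes the heavy chain of smooth muscle myosin (A_51_P362429, mm9 chr16:14195223-14198147, across a splice junction). It was at 1.26, 4.37 and 4.49 with RG@M-γ-CD and at 2.50, 2.07 and 2.40 with PBS. The gap between RG@M-γ-CD replicates 1 and 3, 3.23 on the log2 scale, was a 9.39-fold difference between mice of the same group, while the PBS arrays spanned 0.43. The difference of the means was 1.05 (standard error 0.85, unadjusted p = 0.258 from limma). Mylk encodes myosin light chain kinase and had the smallest p of this role, 0.160 unadjusted from limma. It read 2.38, 4.42 and 4.82 with RG@M-γ-CD and 2.90, 2.87 and 2.94 with PBS. Myl9 encodes the regulatory light chain that this kinase phosphorylates, and its promoter held a CArG box. It read 5.22, 7.63 and 7.82 with RG@M-γ-CD and 5.95, 5.92 and 6.08 with PBS. Kinase and light chain thus had the same order of arrays, with PBS arrays within 0.07 and 0.16 of each other. Ppp1r14a, an inhibitor of myosin phosphatase, had a difference of 0.99. Ppp1r12b encodes a targeting subunit of that phosphatase. Its probe was less even, with PBS arrays 1.30 apart and a difference of 0.34 (standard error 0.80). That probe is assigned to a non-coding RNA of the gene, and the other Ppp1r12b probes failed the filter. The mRNA of the subunit was therefore not tested.

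**Figure D2:**
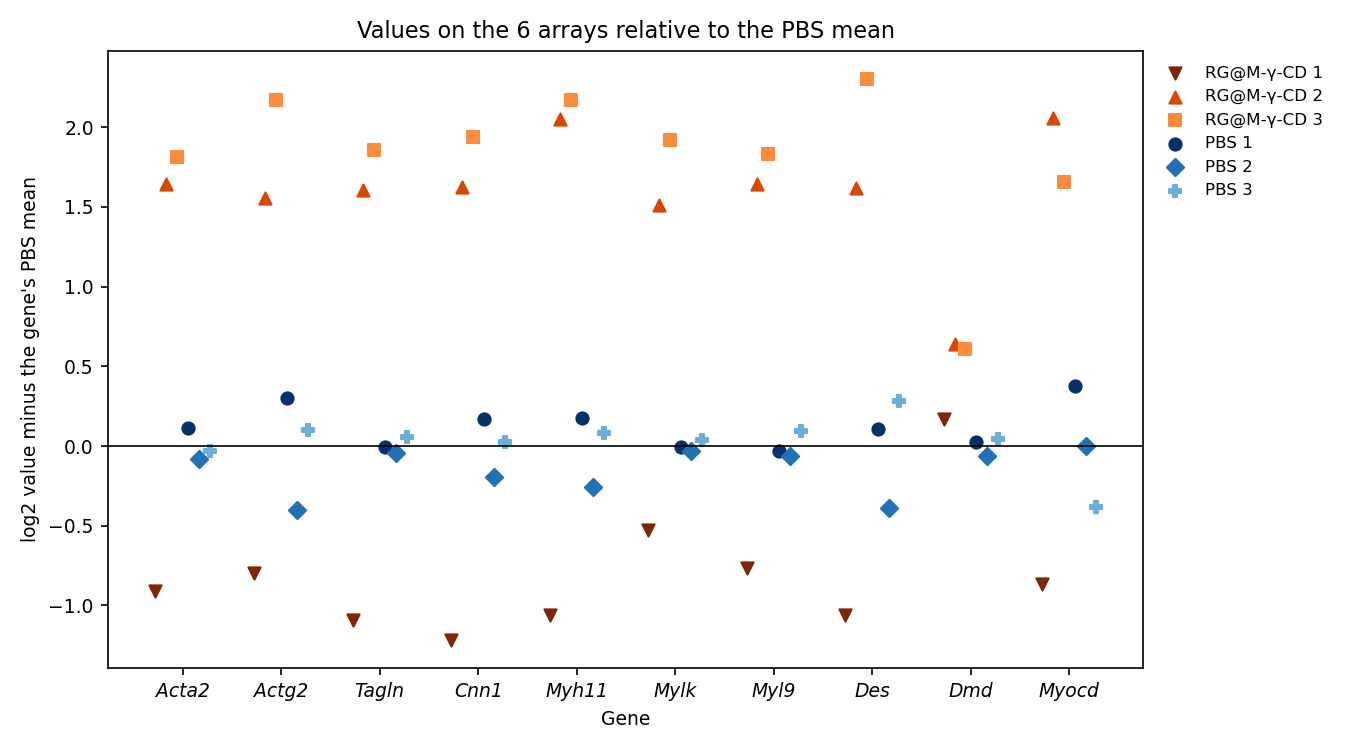
Log2 value minus the PBS mean of the gene (vertical axis) for 10 genes, with 1 point per array (RG@M-γ-CD replicates in orange, PBS replicates in blue). In 9 of the 10 genes RG@M-γ-CD replicate 1 lies below the PBS arrays and replicates 2 and 3 above them, and in Dmd all 3 RG@M-γ-CD arrays lie above.

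Intermediate filaments, dense plaques and membrane anchors were the largest role, with 12 genes tested, 10 of them higher in RG@M-γ-CD (median difference 0.80). Des encodes desmin, the intermediate filament of muscle. It was at 0.29, 2.96 and 3.65 with RG@M-γ-CD and at 1.45, 0.96 and 1.62 with PBS, and the difference of 0.95 (standard error 0.83) did not pass the test (unadjusted p = 0.293 from limma). Synm (synemin, a partner of desmin), Synpo2, Pgm5 and Pdlim3 had means 1.95 to 2.14 times higher in RG@M-γ-CD and the same order of arrays. Flna, the actin crosslinker filamin A, and Csrp1, which are also made by other cells, had the same order in a narrower span, 1.76 and 1.54 between the highest and the lowest array. Itga8, an integrin chain of smooth muscle, had the largest difference of all members, 1.27 (standard error 0.77, unadjusted p = 0.145 from limma).

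Dmd, which encodes dystrophin, the link from actin to the membrane, was the single member with groups that did not overlap on the brightest probe. Its brightest probe (A_55_P2811879, mm9 chrX:82449703-82449762) was at −0.10, 0.37 and 0.34 with RG@M-γ-CD and at −0.25, −0.34 and −0.23 with PBS. The difference was 0.47 (standard error 0.18, unadjusted p = 0.0382 and adjusted p = 0.99998 from limma). This call depended on the probe. The other Dmd probe that passed the filter (A_55_P2167922, mm9 chrX:81132417-81132476) lies 1317 kilobases upstream in the same gene and read −4.87, −0.89 and −2.02 with RG@M-γ-CD and −3.15, −3.65 and −3.43 with PBS. There the groups overlapped, with RG@M-γ-CD replicate 1 the lowest and replicates 2 and 3 the highest, as in the actin and myosin genes. The remaining 8 of the 10 Dmd probes were not well above background on all 3 arrays of either group.

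Ldb3 and Pdlim7, which hold PDZ and LIM domains and are found at actin anchors, did not share the order. Ldb3 was at 0.22, 0.39 and 0.25 with RG@M-γ-CD and at 0.17, 0.21 and 0.75 with PBS. It differed by −0.09 (standard error 0.20) with 0.57 between its highest and lowest arrays. Its promoter held a CArG box, as those of Myl9 and Dmd did. Pdlim7 differed by −0.04 (standard error 0.20). Sync, a partner of desmin and dystrobrevin, differed by 0.20 (standard error 0.29).

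Ion channels and receptors had 7 genes, of which 5 were tested and 4 had a higher mean in RG@M-γ-CD. Cacna1c encodes the pore of the L-type calcium channel that lets calcium in for contraction, and had the smallest p of this role. It read −0.88, 1.098 and 0.99 with RG@M-γ-CD and −0.14, −0.86 and −0.49 with PBS, a difference of 0.90 (standard error 0.55, unadjusted p = 0.148 from limma). Its first RG@M-γ-CD array and PBS replicate 2 were almost level. A dimmer Cacna1c probe (A_51_P376996) read −3.60, −2.90 and −3.31 with RG@M-γ-CD and −3.84, −4.17 and −4.22 with PBS, without overlap. It was not well above background on PBS replicate 2 and passed the filter only through the RG@M-γ-CD arrays, where it was high. Its lack of overlap is therefore no test of the gene. Kcnma1 and Kcnmb1, the pore and the beta subunit of the large-conductance potassium channel that ends contraction, had differences of 0.34 and 0.87, and Jph2, which holds the sarcoplasmic reticulum near the membrane, of 1.001. Tacr2, the neurokinin receptor for contraction, differed by −0.18 (standard error 0.34), with RG@M-γ-CD replicate 1 the lowest and replicate 2 the highest of the 6 arrays. The muscarinic receptors, through which acetylcholine contracts the colon, did not pass the filter over all 6 arrays. Chrm2 was well above background on RG@M-γ-CD replicates 2 and 3 (−2.71 and −1.40) and on PBS replicates 1 and 3 (−4.26 and −4.18), and not on the other two arrays. The 2 Chrm3 probes were each well above background on 1 array of the 6. Without RG@M-γ-CD replicate 1, Chrm2 passed the filter only through RG@M-γ-CD replicates 2 and 3, where it was high. Its difference of 2.26 in that fit (standard error 0.40) is therefore no test of the gene. Without PBS replicate 2 it differed by 0.64 (standard error 1.53).

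Relaxation by cyclic GMP was covered by 4 genes, all with a higher mean in RG@M-γ-CD (median difference 0.64). Prkg1, the protein kinase activated by cyclic GMP, and Mrvi1, its substrate at the inositol trisphosphate receptor, had differences of 0.97 and 0.89 and the common order of arrays. Rgs2 encodes a regulator that shortens signals through Gq and had the smallest p of this role (unadjusted p = 0.142 from limma). It was at 2.99, 3.39 and 3.78 with RG@M-γ-CD and at 3.15, 2.91 and 2.94 with PBS, so replicate 1 lay among the PBS arrays. Pde5a, which breaks down cyclic GMP, differed by 0.36 (standard error 0.32) and had another order, with RG@M-γ-CD replicate 2 below replicates 1 and 3.

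The 3 small heat shock proteins all had a higher mean in RG@M-γ-CD. Hspb6, a phosphoprotein of relaxation, was at −0.14, 1.38 and 2.12 with RG@M-γ-CD and at 0.10, 0.26 and 0.46 with PBS, a difference of 0.84 (standard error 0.55, unadjusted p = 0.170 from limma). Hspb7 spanned 3.50 between RG@M-γ-CD replicates 1 and 2, the widest gap between arrays of any member tested. Hspb8 differed by 0.29 (standard error 0.27). Myocd encodes myocardin, the cofactor of serum response factor in muscle. It was at −3.95, −1.03 and −1.43 with RG@M-γ-CD and at −2.71, −3.08 and −3.47 with PBS, well above background on all 6 arrays. Myocd thus had the same order of arrays as the contractile genes, and its difference of 0.95 (standard error 0.75) did not pass the test (unadjusted p = 0.250 from limma).

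Probes of the same gene gave a check on the readings. Of the 106 member probes 68 passed the filter, and 17 members had more than 1 such probe. Among the 30 probes of these genes not used above, 3 had the opposite sign of difference, in Cald1, Kcnma1 and Tpm1. Over the 6 arrays that of Cald1 (A_55_P2620849) ranged from −1.73 to −1.02, that of Kcnma1 (A_55_P2736300) from −4.01 to −3.34 and that of Tpm1 (A_55_P2078680) from 2.15 to 2.56. RG@M-γ-CD replicates 2 and 3 were highest in 52 of the 68 probes and replicate 1 lowest in 51. The 68 include the probes already counted above, so these counts largely restate that order. The share over all gene probes was not taken. The probes of Acta2 differed in span: A_52_P210078 ran from 0.30 on RG@M-γ-CD replicate 1 to 3.46 on replicate 3, and A_51_P450957 from 3.81 on PBS replicate 2 to 4.74 on RG@M-γ-CD replicate 3.

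Leaving out 1 array showed how far the comparison rested on it. Without RG@M-γ-CD replicate 1, the other 2 RG@M-γ-CD arrays against the 3 PBS arrays gave 40 members tested. Of these, 38 were higher, with a median difference of 1.72, or 3.28-fold. Lmod1 and Chrm2 were among the 40 only through these RG@M-γ-CD arrays, where they were high. In this fit 16 members were higher with an adjusted p below 0.05 from limma, against 0.837% of all genes. In 33 the groups did not overlap, against 13.7% of all genes. The array left out had already been seen to be the lowest in most members. These counts therefore restate that order and are no separate test of it. The 16 were Acta2, Tagln, Cnn1, Smtn and Tpm2 of the thin filament, Myh11, Mylk, Myl9 and Ppp1r14a of the myosin motor, Synm, Synpo2, Pgm5 and Pdlim3 of the anchors, and Jph2, Mrvi1 and Hspb7. Their differences ran from 1.66 to 2.11 and their adjusted p from 0.0300 to 0.0491. Myh11 differed by 2.11 (standard error 0.20) and Acta2 by 1.73 (standard error 0.17). Dmd, with a difference of 0.62, was not among them. Without RG@M-γ-CD replicate 2 or 3 the median difference was 0.51 or 0.38, and 0 members passed in any fit that left out another single array. With replicate 1 left out of both groups, 2 arrays against 2, the median was 1.72 and 0 members passed an adjusted p of 0.05 (smallest 0.0738). At an unadjusted p below 0.05 from limma 33 of 40 were higher, against 6.49% of all genes. Here too Lmod1 and Chrm2 passed the filter only through the RG@M-γ-CD arrays, and the counts restate the same order.

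**Figure D3:**
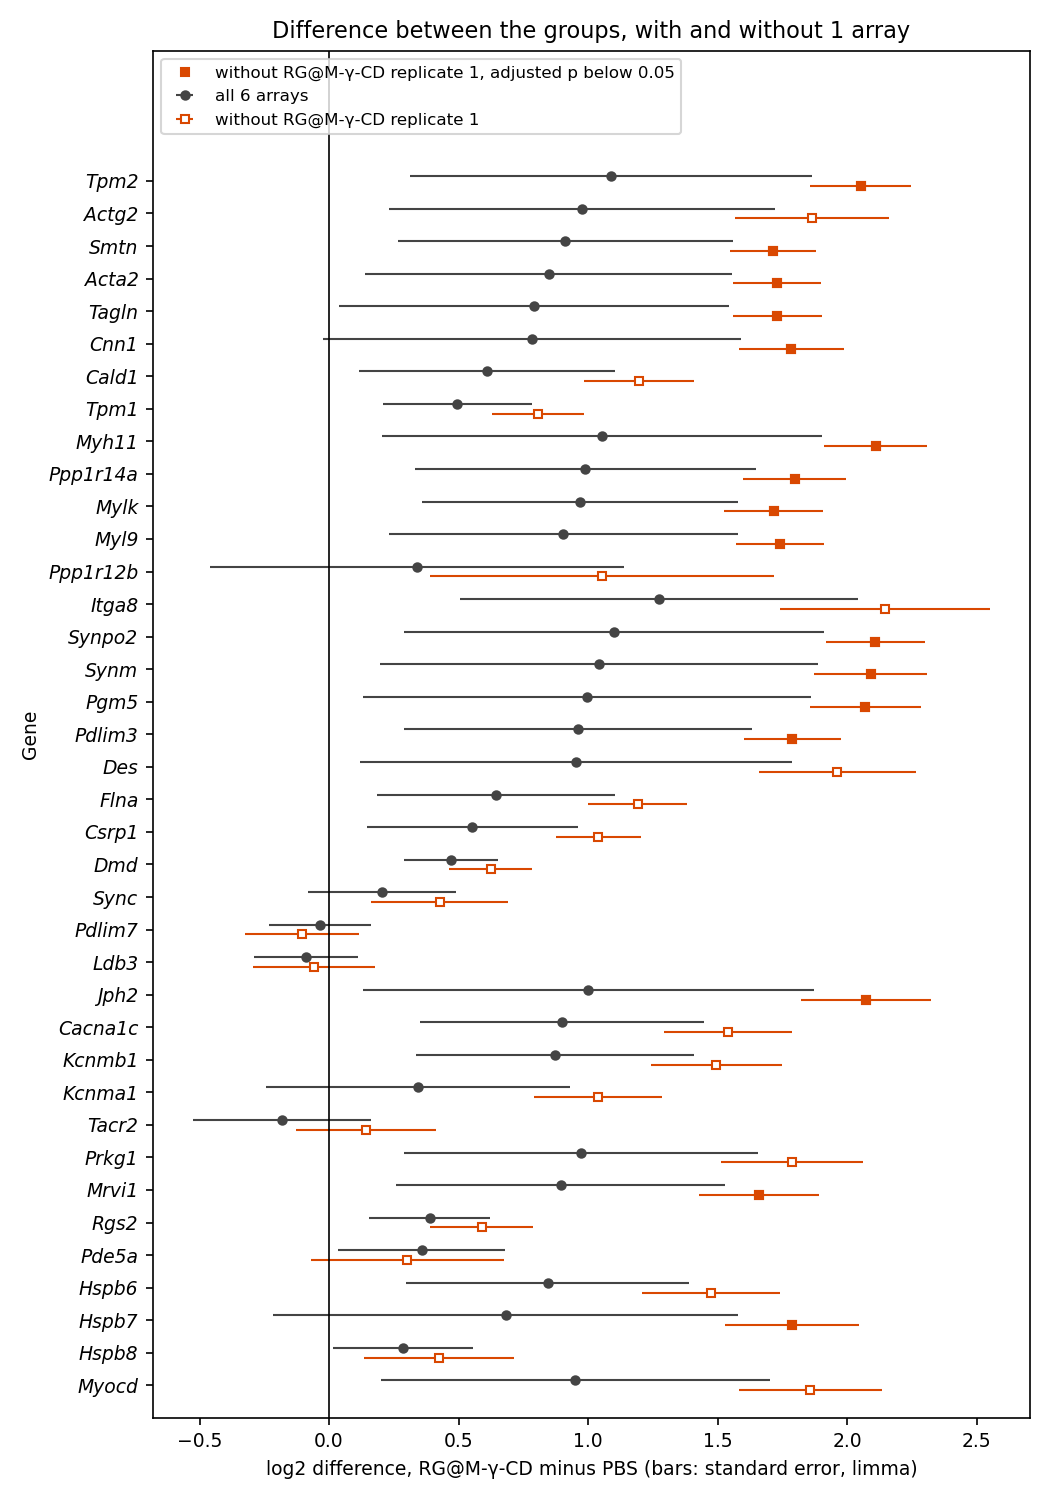
Log2 difference of each gene, RG@M-γ-CD minus PBS (points), with the standard error from limma (bars), over all 6 arrays (grey) and without RG@M-γ-CD replicate 1 (orange, filled where the adjusted p is below 0.05). Over all arrays the bars are wide and 0 genes pass, and without the 1 array, which was the lowest in most members, 16 genes do.

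Other contractile genes, many of them also used by other cells, differed less. Of 39 genes of other contractile machinery, 38 were tested, 30 with a higher mean and 8 with a lower one, and the median difference was 0.13. At an unadjusted p below 0.05 there was 1, Fermt2 (kindlin 2, an integrin partner), higher at 0.72 (standard error 0.26) with groups that did not overlap. The largest differences either way were 0.97 for Sgcd, a sarcoglycan of the dystrophin complex, and −0.24 for the broadly made tropomyosin Tpm4. Srf, serum response factor itself, was at 1.71, 2.31 and 2.37 with RG@M-γ-CD and at 1.81, 1.56 and 1.66 with PBS, and differed by 0.46 (standard error 0.22). Of 36 genes of calcium and cyclic nucleotide handling, 29 were tested, 19 higher and 10 lower, with a median difference of 0.16 and 0 below an unadjusted p of 0.05. Abcc9, the regulatory subunit of an ATP-sensitive potassium channel, had the highest difference (0.89) and Prkar2b, a regulatory subunit of protein kinase A, the lowest (−0.27). The groups did not overlap in 2 of them, Camk2g (0.44) and Kcnj8 (0.63), both higher in RG@M-γ-CD.

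Markers of other cells were read on the same arrays, as medians over a list of the log2 value minus the mean of each gene. The smooth muscle genes ran from −1.13 on RG@M-γ-CD replicate 1 to 1.13 and 1.32 on replicates 2 and 3, with PBS arrays between −0.51 and −0.31. Enteric neurons and glia, which lie between the muscle layers, showed the same order, with −0.72, 0.54 and 0.82 on the RG@M-γ-CD arrays and −0.32 to −0.07 on the PBS arrays (13 of 16 genes tested). Interstitial cells of Cajal, the pacemakers of the muscle wall, were at −0.93, 0.82 and 0.25 (5 of 6 tested), and PDGFRA+ interstitial cells and fibroblasts at −0.71, 0.53 and 0.25 (11 of 12). The medians of these lists were thus low and high on the same RG@M-γ-CD arrays as those of the contractile genes. Of these 3 lists 0 genes were below an unadjusted p of 0.05. The largest differences were 1.54 for Vip (a relaxing neuropeptide) and −0.10 for Chat, 0.65 for Etv1 and −0.16 for Gja1, and 0.87 for Lum and −0.26 for Pdgfra.

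Striated muscle markers were at −0.43, 0.64 and 0.75 on the RG@M-γ-CD arrays over 7 of 15 genes tested. The other 8 failed the filter, and Myh1, Myh6, Myod1 and Mb were well above background on 0 arrays. Among those tested the cardiac actin Actc1 (1.04) and the skeletal actin Acta1 (1.05, unadjusted p below 0.05 and no overlap) had the largest differences, and Tnni2 the lowest (−0.43). Pericytes and vascular muscle (7 of 8 tested) spanned −0.10 to 0.26 on the RG@M-γ-CD arrays and endothelium (10 of 10) −0.04 to 0.61, with the first array not set apart from PBS. The largest differences were 0.64 for Cspg4 and −0.10 for Pdgfrb, and 0.78 for Cldn5, with all 10 endothelial genes higher in mean, and the endothelial receptor Tek was higher without overlap (0.72, standard error 0.25). Epithelium (15 of 15 tested) had a median difference of −0.02, with Car1 at 0.33 and Lgr5 at −0.70, and every array median lay between −0.31 and 0.22. Leukocytes (11 of 12 tested) ran the other way, at 0.13, −0.55 and −0.42 on the RG@M-γ-CD arrays and 0.12 to 0.25 on the PBS arrays, with 10 of 11 genes lower in mean, S100a8 by −2.52 and Cd14 without overlap (−0.41, standard error 0.17), and Jchain higher by 0.49. Serosa and fat had 3 of 8 genes tested (Msln −0.60, and Cidec 0.96 without overlap). The part of any of these cells, or of the amount of muscle wall in a piece, in the differences above was not tested.

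**Figure D4:**
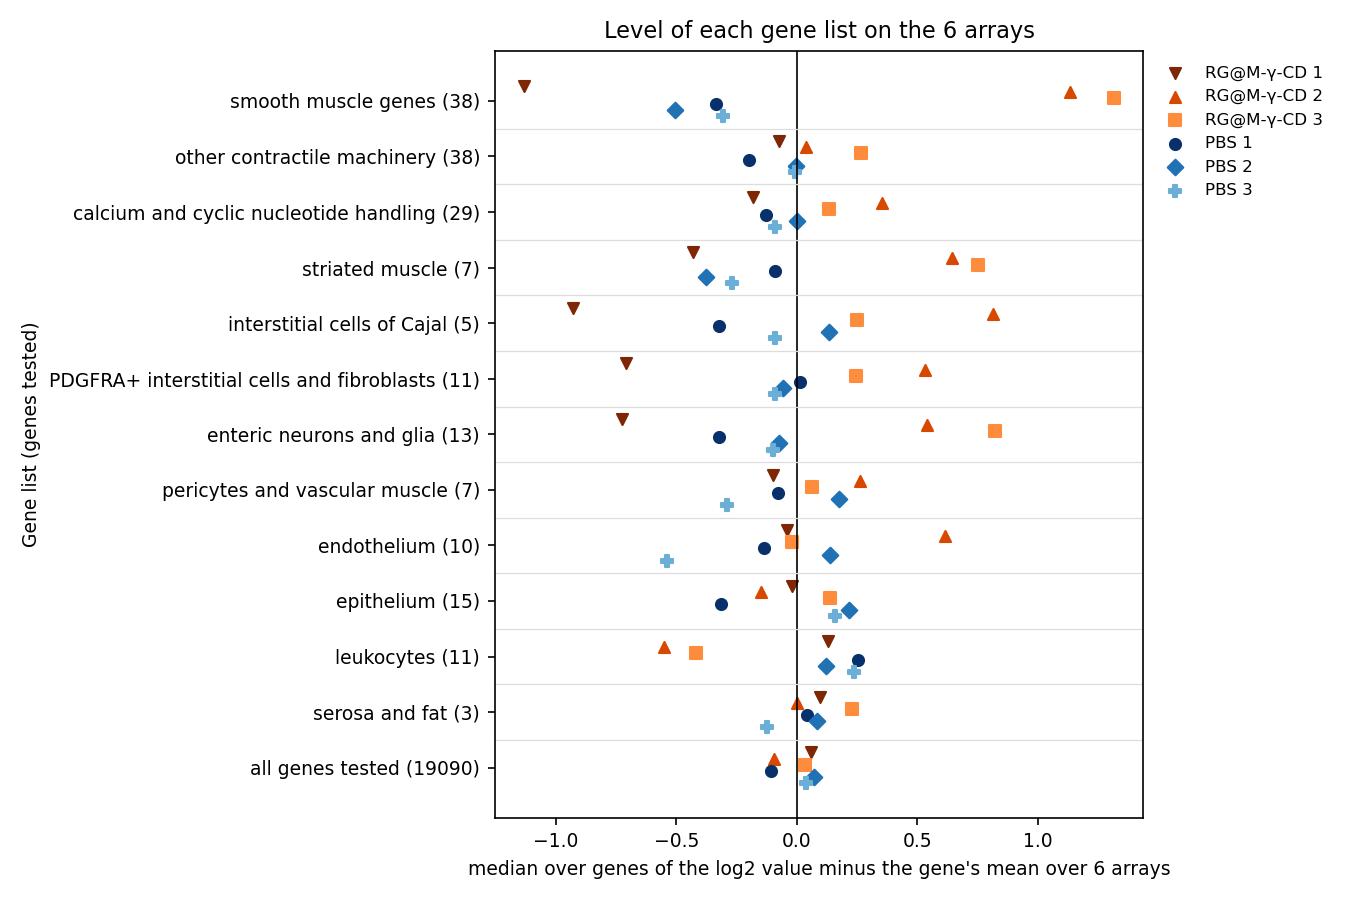
Median over the genes of each list of the log2 value minus the mean of the gene over the 6 arrays (horizontal axis), with 1 point per array and the number of genes tested in brackets. RG@M-γ-CD replicate 1 is lowest and replicates 2 and 3 are highest for the smooth muscle genes and for neurons and glia. The medians of interstitial cells of Cajal, PDGFRA+ cells and fibroblasts, striated muscle, and calcium and cyclic nucleotide handling have the same order. Not every gene of these lists shares it: replicate 1 is the lowest array in 2 of the 7 striated muscle genes. The leukocyte markers are lowest on replicates 2 and 3.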

How the data were processed

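Tissue RNA of 6 mice was labeled with Cy3 and hybridized to one-color Agilent arrays, 1 per mouse and 3 per group, and samples were grouped by their labels. The authors deposited the output of Agilent Feature Extraction 10.7.1.1, in which spot intensities are background-subtracted and detrended within an array but not normalized across arrays, and values per probe on the log2 scale, which served as an alternative. Members and lists were chosen with earlier results of these data known.

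Files were read with version 4.3.3 of R and version 1.17.8 of data.table. After removal of 3671 control spots and 790 outlier spots, replicate spots were averaged as log2 values and each array was scaled by subtracting its 75th percentile. Symbols of 32994 of the 56605 gene probes came from the reference table by accession, and 23611 probes kept the name in the files. Of the 106 member probes, 77 had an accession that gave the same symbol, 0 one that gave another, and 29 none in the reference. A probe was tested where at least 0.5 of its spots were marked well above background on each of the 3 arrays of either group, and the brightest such probe stood for its gene. Differences were fitted with limma 3.58.1, without covariates, and adjusted by Benjamini-Hochberg over all genes (threshold 0.05). The fit was tested on simulated data in which the spread of a gene was capped at the median over genes and equal in both groups. The members have a wider and unequal spread, so that test does not cover them. Depth is signal over background, and the number of arrays limits the precision. Nothing says whether tissue pieces were dissected alike, so p-values measure the spread between these mice and pieces. Probe positions are those of the files (mm9), and exon and UTR annotation of that build was not used here.

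All 41 members are accounted for by role. Values on every array are given for Acta2, Actg2, Myh11, Mylk, Myl9, Tagln, Cnn1, Lmod1, Des and Myocd, for the member of each role with the smallest p, and for members at an unadjusted p below 0.05 or without overlap. Genes of the other lists are named for the largest difference either way, and Srf, other genes below p 0.05 or without overlap and the absent striated markers were added after their values were seen. Alternatives were quantile normalization, normexp with an offset of 50, the authors' values, no filter on dim probes or a filter on every array, averaging all probes of a gene, keeping outlier spots, a block for the replicate number or the slide row, the methods' t-test, and leaving out arrays.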

Additional observations from a re-analysis of the deposited data

How the results depend on the processing

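The median difference of the smooth muscle genes was positive under every alternative listed above, between 0.75 and 0.88 where all 6 arrays were kept (lowest with the slide row as a block, 0.75, highest with quantile normalization and the authors' table, 0.88) and between 0.38 and 1.72 when 1 array was left out. The number of members with an adjusted p below 0.05 was 0 in each of these fits except without RG@M-γ-CD replicate 1, so leaving out 1 array gave 0 to 16. At an unadjusted p below 0.05 from limma, 1 member was higher with all arrays, against 0.864% of all genes. It was 0 members without a filter, with the mean of a gene's probes and with the replicate block. Without replicate 1 of both groups 33 of 40 members were higher, against 6.49% of all genes. Deviations of same-numbered arrays from their group means correlated across genes at −0.25, −0.23 and 0.14, and those of other numbers at −0.33 to 0.41. With 3 arrays behind each mean, these values cannot show whether the numbers pair the mice. The median with the replicate block was 0.86 with 0 members passing. By the methods' t-test, 0 members and 45 genes met a fold change of 2 with a p of at most 0.05, and 0 members passed after Benjamini-Hochberg. Without a filter the serosa and fat list had a median of 0.41 in place of −0.07. The cause of these shifts was not tested. Over all 6 arrays Lmod1, Chrm2 and Chrm3 were too near background to be tested. Lmod1 and Chrm2 passed the filter once PBS replicate 2 was left out. They also did so without RG@M-γ-CD replicate 1, but only through the other RG@M-γ-CD arrays, where they were high.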
